A study of Mus musculus with 6 samples.

Results

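The genes described here are 10 components of the NF-kB system: the subunits Nfkb1, Nfkb2, Rel and Rela, the cytoplasmic inhibitors Nfkbia and Nfkbie, the nuclear IkB proteins Nfkbiz and Bcl3, and the feedback enzymes Tnfaip3 and Birc3. They were chosen by symbol, through the NCBI Gene number of each row, and all 10 had a row among the 17567 rows of the per-sample count files. The samples were immature dendritic cells grown from the marrow of C57BL/6 mice that the labels give as male and 6 weeks old, and fed 20 ng/mL GM-CSF and 10 ng/mL IL-4 in a 10% serum medium. They were taken on day 6 and purified on CD11c beads. The H2O2 group then received hydrogen peroxide, an oxidant, at 100 µM over 24 h, and the other group is labelled control with no vehicle named. Both groups were made by the same protocol of marrow culture, cytokines and bead purification. Where the labels put 3 samples in each group, they do not say whether these came from separate mice or cultures, so each p-value reflects the scatter among these samples alone, and that scatter may be technical.

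NF-kB is a family of dimeric transcription factors that wait in the cytoplasm, bound by IkB inhibitors. Signals from Toll-like receptors, TNF receptors or CD40 activate the IkB kinase (IKK) complex, the inhibitor is degraded and the dimer enters the nucleus. Several inhibitors and ubiquitin enzymes of the pathway are themselves NF-kB target genes, which forms negative feedback. In dendritic cells the pathway is known for driving maturation, with c-Rel and RelB prominent in the mature cell.

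The values of H2O2 replicate 3 equalled those of H2O2 replicate 1 in all 17567 rows, so that file was counted once and 5 distinct libraries remained, 3 control and 2 H2O2. Library totals lay between 16232604 and 16672491 estimated counts. The libraries also fell into 2 sets by 4 transcripts of the Y chromosome, which summed to 1756 and 1608 counts in control replicate 1 and H2O2 replicate 1 (set A) and to between 2 and 7 counts in control replicates 2 and 3 and H2O2 replicate 2 (set B). The 3 libraries of set B therefore go against the label of male mice, and the sources used here do not explain the split. Set A holds the libraries whose titles carry no suffix. H2O2 was therefore compared with control within the sets: H2O2 replicate 1 with control replicate 1, and H2O2 replicate 2 with control replicates 2 and 3. The dendritic cell markers fixed for the check all had counts (Itgax, the CD11c gene, averaged 1848 CPM, the counts scaled to a common library total), and 7 markers of T, NK and B cells summed to at most 3.02 CPM in any library. Mast cell and basophil markers summed to between 32.1 and 80.5 CPM in the controls and to 10.1 and 21.1 CPM with H2O2. Neutrophil markers summed to 106.7 and 103.1 CPM in set A and to between 294.6 and 480.8 CPM in set B.

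NF-kB dimers bind a site of 10 letters, and sites in the genes' own promoters are part of the known feedback, so the RefSeq promoter windows (GRCm38.p6, 250 bases before to 50 after a gene's start) were searched on both strands for the NF-kB consensus. Of the 10 genes 8 had an entry, and Nfkb1 and Nfkbiz did not. A match stood in the windows of 6 of these 8 genes (75.0%), against 9.55% of the 27025 genes with an entry. Among the 9868 tested genes with an entry the share was 12.4%. The 10 distinct places are printed below, 30 bases each on the gene's strand, with the match in capitals. Where matches overlap on both strands the capitals mark their union.
Nfkb2, chr19:46304688-46304717, + strand: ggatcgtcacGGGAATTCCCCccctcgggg
Nfkb2, chr19:46304716-46304745, + strand: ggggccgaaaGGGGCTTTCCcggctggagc
Nfkb2, chr19:46305449-46305478, + strand: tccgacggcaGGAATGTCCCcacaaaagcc
Nfkb2, chr19:46305695-46305724, + strand: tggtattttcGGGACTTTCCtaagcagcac
Rel, chr11:23771042-23771071, - strand: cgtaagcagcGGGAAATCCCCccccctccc
Nfkbia, chr12:55492657-55492686, - strand: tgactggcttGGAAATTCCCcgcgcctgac
Nfkbie, chr17:45555584-45555613, + strand: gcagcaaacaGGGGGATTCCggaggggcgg
Bcl3, chr7:19822734-19822763, - strand: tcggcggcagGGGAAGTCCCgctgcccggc
Tnfaip3, chr10:19015516-19015545, - strand: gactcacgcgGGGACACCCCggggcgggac
Tnfaip3, chr10:19015403-19015432, - strand: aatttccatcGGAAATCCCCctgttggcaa

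Most of these places lay just upstream of a gene's start. With the start as 0, the match in Rel ran from -92 to -82, that in Nfkbia from -29 to -20, and that in Nfkbie from -106 to -97. Nfkb2 has 3 starts among the promoter entries and 4 places, with the first pair at -39 to -29 and -11 to -2 of the most upstream of these starts. The span of the gene begins farther upstream, at chr19:46300994. The match in Bcl3 lay at 2 to 11, after the start listed at chr7:19822755. The span of Bcl3 also begins farther upstream, at chr7:19822824 on the - strand. Rela and Birc3 had entries with no match, which says only that these letters are not in those windows. The 250 bases before the start of Rel (chr11:23770970-23771219, - strand) are printed in full. So are those before the most upstream of the 3 listed starts of Nfkb2 (chr19:46304487-46304736, + strand). These genes were taken because their levels differed most between the sets.
Rel: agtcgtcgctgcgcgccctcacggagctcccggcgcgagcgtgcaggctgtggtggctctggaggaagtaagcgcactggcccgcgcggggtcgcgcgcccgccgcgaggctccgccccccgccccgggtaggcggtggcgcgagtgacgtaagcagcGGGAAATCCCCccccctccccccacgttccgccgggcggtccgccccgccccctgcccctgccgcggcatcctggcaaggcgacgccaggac
Nfkb2: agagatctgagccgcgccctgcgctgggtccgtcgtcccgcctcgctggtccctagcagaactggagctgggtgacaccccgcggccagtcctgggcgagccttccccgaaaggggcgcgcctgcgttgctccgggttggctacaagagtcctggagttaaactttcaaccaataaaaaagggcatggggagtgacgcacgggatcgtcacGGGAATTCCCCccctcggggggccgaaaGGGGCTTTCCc

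All 10 genes were transcribed in every library. Scaled to the length of the longest protein-coding transcript in GENCODE M21, Nfkbia had the highest level (125.6 ± 16.8 CPM per kb, SD over 5 libraries), followed by Nfkb1 (84.9 ± 17.9), Rel (58.8 ± 27.4), Nfkb2 (47.2 ± 14.2) and Birc3 (42.1 ± 7.69). Nfkbie (28.5 ± 5.57), Tnfaip3 (28.0 ± 4.02) and Rela (26.7 ± 4.19 CPM per kb) came next. Bcl3 (11.8 ± 2.31) and Nfkbiz (3.76 ± 0.44 CPM per kb) were lowest. The ranges of neighbours in this order were apart only between Birc3 and Nfkbie, Rela and Bcl3, and Bcl3 and Nfkbiz. Rel lay above Nfkb2 in 4 of 5 libraries, Nfkb2 above Birc3 in 4 of 5, and Nfkbie above Tnfaip3 in 3 of 5, while Nfkbia lay above Nfkb1, and Nfkb1 above Rel, in 5 of 5.

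**Figure D1:**
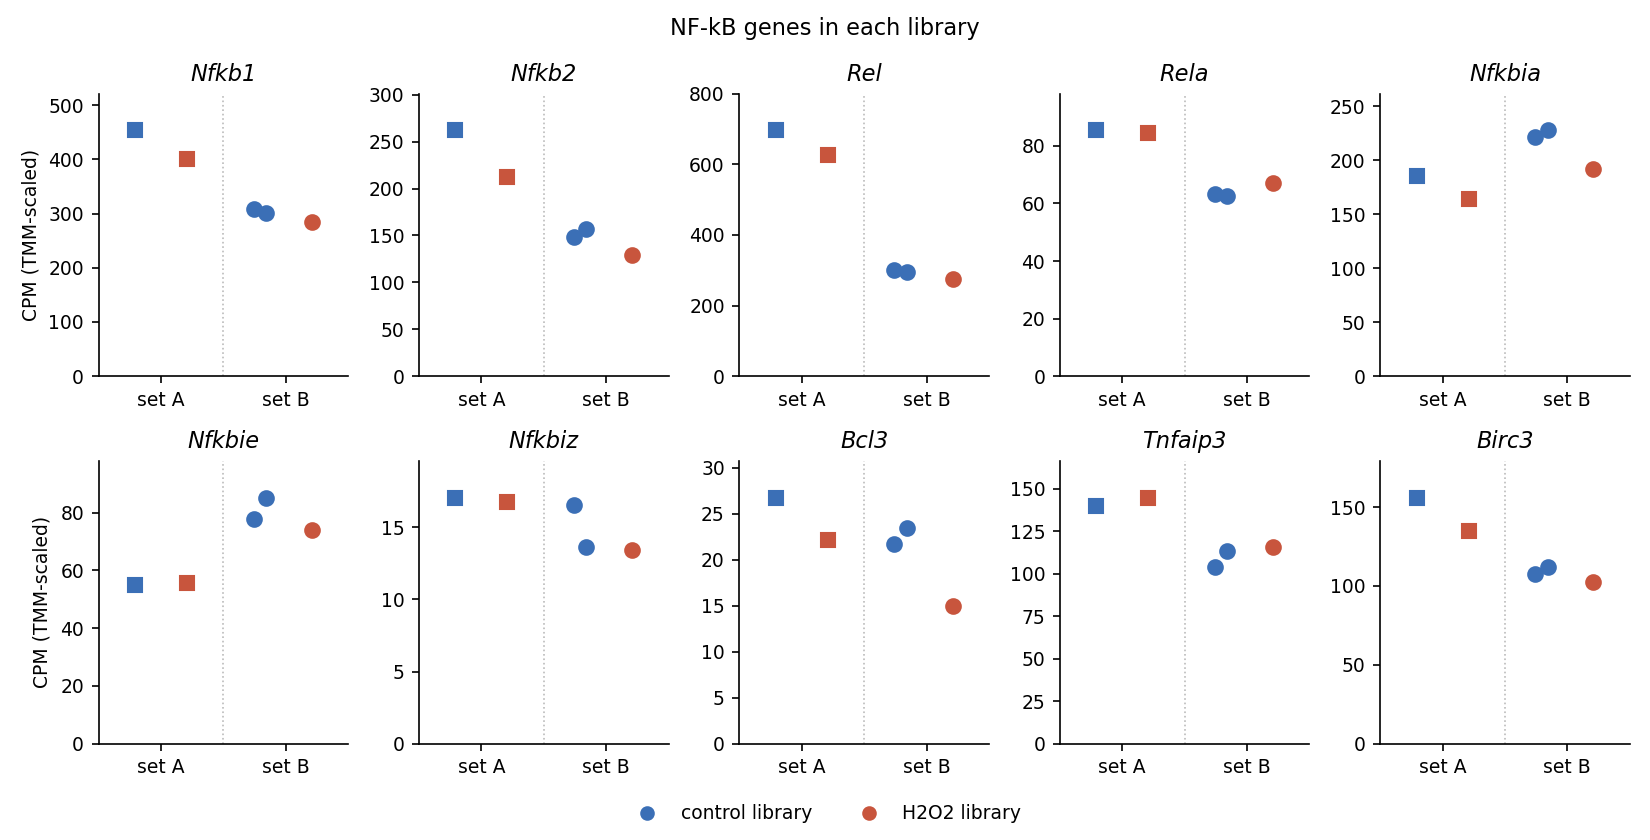
Level of each gene in CPM (vertical axis, from 0) in every distinct library, with set A (squares, 1 control and 1 H2O2 library) on the left of each panel and set B (circles, 2 control and 1 H2O2 library) on the right. The sets are further apart than control and H2O2 within a set for Rel, where set A stands at 696.2 and 625.8 CPM and set B between 276.4 and 300.3 CPM.

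Exposure to H2O2 moved none of the 10 genes past the test. EdgeR's quasi-likelihood fit with a term for the set called 0 of 10 at an adjusted p of at most 0.05, against 8.54% of the 12209 genes tested (3.93% higher and 4.61% lower). At an unadjusted p under 0.05 there were 3 of 10, beside 27.8% of all genes. These were Nfkb2, Bcl3 and Nfkbia, all on the lower side, where 14.1% of all genes lay. Limma-voom and DESeq2 with the same term also called 0. Without the set term edgeR called 0 of the 10 and 0 of all genes, with 0 of 10 and 6.99% of all genes at an unadjusted p under 0.05. The fitted change was below 0 for 8 of the 10 and for 48.4% of all genes. The log2 changes lay between -0.44 (Bcl3) and 0.07 (Tnfaip3) with a median of -0.13, against 0.01 over all genes tested. The 95% interval of each of the 10 changes excluded a doubling and a halving. In bulk RNA, fewer cells of a type and less RNA per cell cannot be told apart.

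Among the subunits, Nfkb2 encodes the precursor used by the non-canonical branch of the pathway (GRCm38.p6 chr19:46300994-46312400, + strand). Control replicates 1, 2 and 3 had 262.0, 148.0 and 157.2 CPM, and H2O2 replicates 1 and 2 had 212.2 and 129.0 CPM, the order used for every gene here. Each H2O2 library lay below the controls of its own set, but the groups overlapped as a whole. Its log2 change was -0.27 ± 0.069 SE (95% interval -0.43 to -0.10), with an adjusted p of 0.0608 by edgeR. Its span overlaps that of Psd by 316 bases, and Psd had at most 3.72 CPM in any library.

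Nfkb1, the precursor gene of the canonical branch (chr3:135584655-135691969), stood at 453.5, 308.4 and 300.2 CPM in the controls and at 400.0 and 284.9 CPM with H2O2 (log2 -0.13 ± 0.067, adjusted p = 0.249 by edgeR). Rel, which encodes c-Rel (chr11:23736847-23770969), stood at 696.2, 300.3 and 294.4 CPM in the controls and at 625.8 and 276.4 CPM with H2O2 (log2 -0.13 ± 0.065, adjusted p = 0.258 by edgeR). Both genes were lower in each H2O2 library than in the controls of its own set, and for both the groups overlapped. Without the set term the log2 change of Rel was 0.07, where set A makes up 1 of 2 H2O2 libraries and 1 of 3 controls. Rela, the transactivating partner in the classical dimer (chr19:5637442-5648134), stood at 85.38, 63.45 and 62.74 CPM in the controls and 84.55 and 67.04 CPM with H2O2. Its log2 change was 0.04 ± 0.069 (interval -0.12 to 0.21). It was -0.01 for the pair of set A and 0.09 for set B.

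Nfkbia encodes IkB-alpha, the main rapid feedback inhibitor (chr12:55489409-55492647). It stood at 185.4, 222.1 and 227.8 CPM in the controls and at 163.9 and 192.0 CPM with H2O2. Both H2O2 values were below the controls of their own sets, while H2O2 replicate 2 lay above control replicate 1. Its log2 change was -0.21 ± 0.066 (interval -0.36 to -0.05, adjusted p = 0.101 by edgeR). Set A alone gave -0.18 and set B alone -0.23. Nfkbie, which encodes the related inhibitor IkB-epsilon (chr17:45555700-45563169), stood at 54.9, 77.8 and 85.1 CPM in the controls and at 55.8 and 73.9 CPM with H2O2. In set A its 2 libraries differed by 0.02 on the log2 scale, and in set B the H2O2 library was lower by a log2 change of -0.14.

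Bcl3, a nuclear IkB protein that works with dimers of the processed subunits (chr7:19808462-19822824), had the widest change of the 10. The controls had 26.74, 21.69 and 23.41 CPM and the H2O2 libraries 22.17 and 15.03 CPM. H2O2 replicate 2 was the lowest library, and H2O2 replicate 1 lay between control replicates 2 and 3. The log2 change was -0.44 ± 0.117 (interval -0.72 to -0.16, adjusted p = 0.0652 by edgeR). Set A alone gave -0.27 and set B alone -0.58. With control replicate 1 left out it was -0.59 (adjusted p = 0.0209 by edgeR), and with H2O2 replicate 1 left out it was -0.58 (adjusted p = 0.038 by edgeR). Both of those fits compare only the libraries of set B. Without H2O2 replicate 2 it was -0.27 (adjusted p = 0.321 by edgeR). Nfkbiz, the nuclear IkB protein needed for a group of secondary response genes (chr16:55811375-55838954), was the scarcest gene, at 17.0, 16.6 and 13.6 CPM in the controls and 16.7 and 13.4 CPM with H2O2 (log2 -0.10 ± 0.131).

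Tnfaip3 encodes A20, a ubiquitin-editing enzyme that shuts the pathway down (chr10:19000910-19015410). It was the only gene of the 10 that stood above the controls of its own set in both sets, at 140.1, 103.9 and 113.6 CPM in the controls and 144.7 and 116.0 CPM with H2O2. The log2 change was 0.07 ± 0.073 (interval -0.10 to 0.25). Birc3, a ubiquitin ligase of TNF receptor complexes (chr9:7847468-7873205), stood at 155.8, 107.6 and 111.8 CPM in the controls and 135.1 and 102.6 CPM with H2O2 (log2 -0.14 ± 0.070, adjusted p = 0.234 by edgeR).

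Within the sets, 7 of the 10 genes were lower with H2O2 than in every control of their own set in both sets, a pattern found in 28.0% of all genes tested. Tnfaip3 was higher in both, as were 28.5% of all genes, which makes 8 of 10 against 56.5% for either direction. Rela and Nfkbie did neither. The mean change had the same sign in both sets for 8 of the 10 (65.5% of all genes), and was below 0 in both for 7 (32.3%). Set A gave a median change of -0.17 over the 10 genes (0.0064 over all genes) and set B one of -0.12 (-0.0004 over all genes). No gene of the 10 had H2O2 libraries all above or all below the controls when the sets were pooled, against 23.7% of all genes. The difference of the change between the sets was tested with an interaction term, which leaves 1 residual degree of freedom. It was called for 0 of the 10 by edgeR and by limma-voom (0.0164% of all genes by edgeR), with 0 of 10 at an unadjusted p under 0.05 by edgeR. Its widest estimate was 0.32 ± 0.196 for Bcl3.

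**Figure D2:**
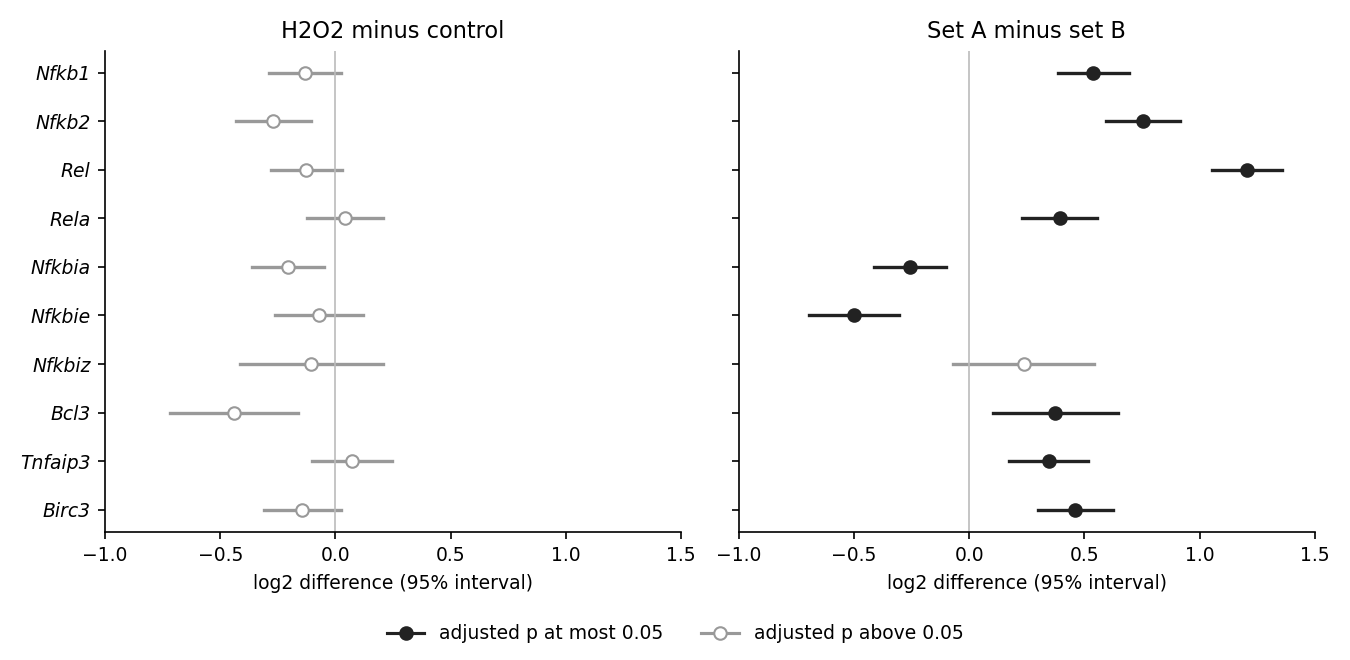
Fitted log2 difference of each gene (horizontal axis, bars are 95% intervals) for H2O2 minus control on the left and for set A minus set B on the right, with filled points for an adjusted p of at most 0.05. On the left no point is filled and all 10 lie between -0.44 and 0.07, while on the right 9 points are filled, between -0.50 (Nfkbie) and 1.21 (Rel).

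The median absolute log2 difference of the 10 genes was 0.43 between the library sets and 0.13 between treatments, against 0.27 and 0.17 over all genes tested. Of the 10, only Bcl3 had the larger of its own pair between treatments. Of the 10, 7 were higher and 2 lower in set A at an adjusted p of at most 0.05 by edgeR, and 36.0% of all genes tested were called in this comparison (19.1% higher and 16.9% lower). The sets come from the data and not from the design, so these are differences between 2 and 3 libraries with no labelled meaning. All 4 subunits were higher in set A: Rel by a log2 difference of 1.21 ± 0.064 (2.31-fold, adjusted p = 6e-05 by edgeR), Nfkb2 by 0.75 ± 0.068, Nfkb1 by 0.54 ± 0.066 and Rela by 0.39 ± 0.069. The feedback enzymes were also higher, Birc3 by 0.46 ± 0.069 and Tnfaip3 by 0.35 ± 0.072, as was Bcl3 by 0.37 ± 0.114. The 2 cytoplasmic inhibitors among the 10 went the other way, with Nfkbie at -0.50 ± 0.082 and Nfkbia at -0.26 ± 0.066. Nfkbib, an inhibitor gene outside the 10, was higher in set A (log2 0.69, adjusted p = 0.00149 by edgeR). Nfkbiz stood at 0.24 ± 0.130 (adjusted p = 0.196 by edgeR).

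The sets did not overlap in 9 of the 10 genes, all but Bcl3, beside 51.9% of all genes. The subunits and the cytoplasmic inhibitors among the 10 therefore stood in different proportions in the sets. Per length, the ratio of Rel to Nfkbie was 4.14 and 3.66 in control replicate 1 and H2O2 replicate 1, and 1.26, 1.13 and 1.22 in control replicates 2 and 3 and H2O2 replicate 2. The ratio of Rel to Rela was 2.97 and 2.69 in set A and between 1.5 and 1.72 in set B. In neither ratio of Rel did control and H2O2 of a set differ as much as the sets did. Of the 10, Rel had the highest and Nfkbie the lowest log2 difference of set A minus set B, so their ratio had to differ between the sets. The ratio of Nfkb1 to Rela overlapped between them, at 3.50 and 3.12 in set A and between 2.80 and 3.21 in set B. With single libraries left out, Rel, Nfkb2, Nfkb1, Rela, Birc3 and Nfkbie kept their calls in all 5 fits. Nfkbia lost its call without control replicate 1, 2 or 3 (adjusted p of 0.0696, 0.0812 and 0.0931 by edgeR). Bcl3 lost it without any library but control replicate 1 (at least 0.0654), and Tnfaip3 lost it without control replicate 2 (0.0509).

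The genes with a promoter match are found on both sides of this difference: Rel, Nfkb2, Tnfaip3 and Bcl3 were higher in set A, and Nfkbia and Nfkbie lower. Other genes moved with the sets as well. Ccr7, the chemokine receptor of mature dendritic cells, stood at 1466 and 1275 CPM in set A and between 356.5 and 445.0 CPM in set B. Of 20 surface and maturation targets 10 were higher and 3 lower in set A, beside 19.1% and 16.9% of all genes. The 3 lower were Nlrp3 (log2 -1.07), Cd80 (-0.89) and Cd274 (-0.28). Other targets were more divided: 9 higher and 6 lower of 21 tested cytokine and chemokine targets, and 4 higher and 6 lower of 13 survival targets. The widest log2 differences of all these targets, set A minus set B, were those of Ccl4 (-4.52), Ccl3 (-3.45), Il12b (2.87), Ccl17 (-2.53) and Tnf (-2.07). Of the markers of other cells, 5 of 7 neutrophil markers and 6 of 7 mast cell and basophil markers were lower in set A, beside the same 16.9% of all genes, and none of either list was higher. The part of these cells in the difference of the NF-kB genes was not tested.

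The rest of the pathway was read from lists of 127 other genes, of which 125 were tested. With H2O2, 9 rose and 11 fell (16% of them, beside 8.54% of all genes), and their median log2 change was 0.04. Of all genes tested, 3.93% were called higher and 4.61% lower, the shares to set beside the counts of each list below. All calls among the 125 genes rest on the set term: edgeR called 0 of the 125, and 0 of all genes, without it. With the set term it called 5 without control replicate 3, 13 without control replicate 2 and 36 without control replicate 1. The same fits called 304, 722 and 2064 of all genes tested, in that order.

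Of 6 genes in a list of other subunits, IkB genes and associated genes (Relb, Nfkbib, Nfkbid, Nkrf, Nkap and Nkapd1) 1 fell. This was Relb, the partner of the Nfkb2 product in the non-canonical branch, at 111.7, 46.6 and 44.2 CPM in the controls and 80.6 and 36.9 CPM with H2O2 (log2 -0.38 ± 0.079, adjusted p = 0.0354 by edgeR). Both H2O2 libraries were below the controls of their own sets. It was also higher in set A by 1.23, next to 1.21 for Rel. Set A alone gave -0.47 and set B alone -0.30, beside -0.30 and -0.24 for Nfkb2.

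Of 13 genes of the IKK complex and upstream kinases 1 rose. Ikbkg, the regulatory subunit of IKK (NEMO), stood at 117.1, 109.1 and 108.4 CPM in the controls and 155.3 and 160.3 CPM with H2O2, with no overlap between the groups. It rose 1.41-fold (log2 0.49 ± 0.070, adjusted p = 0.0187 by edgeR). Its span overlaps that of G6pdx by 19398 bases, and the strand setting of the counting is not given in the sources used here. G6pdx stood at log2 0.18 ± 0.090, with 246.4, 254.1 and 256.1 CPM in the controls and 317.7 and 261.9 CPM with H2O2. Whether the 2 genes share reads was not tested. The catalytic IKK subunits stood at 0.16 ± 0.066 (Chuk) and -0.07 ± 0.075 (Ikbkb), and the most abundant gene of the list, the adaptor Tab2, at -0.13 ± 0.065.

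Among 24 adaptors 1 fell, Traf1, a TNF receptor adaptor that is itself a target of the pathway (log2 -0.33 ± 0.067, adjusted p = 0.0331 by edgeR). Malt1, a protease of the signalling complex below Dectin-1 and the most abundant of these adaptors, stood at 0.03 ± 0.076. Among 20 other negative regulators 1 fell, Pdlim2, which promotes the degradation of nuclear Rela (log2 -0.61 ± 0.138; 10.1, 17.5 and 17.7 CPM in the controls, 7.69 and 10.4 CPM with H2O2). Its adjusted p was 0.0437 by edgeR and 0.0704 by DESeq2. The deubiquitinase gene Cyld stood at 0.08 ± 0.069 and Tax1bp1, an A20 partner, at 0.14 ± 0.084.

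Receptors that feed the pathway changed in both directions, with 1 of 14 higher and 4 lower. Clec7a, the beta-glucan receptor Dectin-1, rose 1.57-fold, from 1501, 998.0 and 902.3 CPM in the controls to 2236 and 1543 CPM with H2O2 (log2 0.65 ± 0.077). Il18r1, a subunit of the IL-18 receptor, was 2.36-fold lower (61.3, 14.1 and 16.8 CPM in the controls, 23.2 and 7.45 CPM with H2O2). Tnfrsf11a, the gene of RANK, fell by 0.49 ± 0.1 and the scarce Tnfrsf4, the gene of OX40, by 1.19 ± 0.220, both on the log2 scale. The fourth was Tlr9, which senses unmethylated DNA (log2 -0.56, adjusted p = 0.0495 by edgeR), named after its value was seen.

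Of 21 tested cytokine and chemokine targets 4 rose and none fell, with a median of 0.23. Cxcl3, a neutrophil-attracting chemokine, rose 2.05-fold, from 200.1, 218.1 and 190.1 CPM to 447.1 and 393.4 CPM (log2 1.04 ± 0.089, adjusted p = 0.00647 by edgeR), and the groups did not overlap. Ccl2 rose by 0.47 ± 0.087 and Il1rn, the antagonist of the IL-1 receptor, by 0.44 ± 0.082 on the log2 scale. Cxcl2 also rose (0.62) and was named after its value was seen. Tnf stood at 13.8, 75.5 and 74.9 CPM in the controls and 22.6 and 70.6 CPM with H2O2. Set A alone gave 0.71 and set B alone -0.09 (interaction 0.81, adjusted p = 0.0759 by edgeR). Ccl22, the most abundant of the list, stood at -0.21 ± 0.084.

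Surface and maturation targets fell in 5 of 20 cases and rose in 1, with a median of -0.18. Those that fell were Fscn1 (log2 -0.67 ± 0.074), Cd83 (-0.51 ± 0.070), Marcksl1 (-0.35 ± 0.067), Relb and, named after its value was seen, Cd86 (-0.36). All but Cd86 were higher in set A by at least 0.80 on the log2 scale, and Cd86 by 0.37. Nos2, the inducible nitric oxide synthase, rose 1.56-fold (log2 0.65 ± 0.143; 447.5, 610.2 and 429.7 CPM to 741.2 and 779.2 CPM). Among 13 survival targets Plk2 (0.49 ± 0.107) and Bcl2l1 (0.34 ± 0.078) rose and Traf1 fell, and Bcl2a1b, which has near-identical copies that may share its reads, stood at -0.07 ± 0.072.

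Without H2O2 replicate 2 none of the H2O2 calls above held. That fit has 1 H2O2 library and called hardly any gene of all those tested, so it could not single out these genes. With each other library left out in turn, Cxcl3, Fscn1, Clec7a, Il18r1 and Cd83 stayed past the threshold in edgeR's test. Without control replicate 3 the calls of Relb, Ikbkg, Traf1, Pdlim2, Tnfrsf11a, Tnfrsf4, Ccl2, Il1rn, Marcksl1, Nos2, Plk2 and Bcl2l1 were lost (adjusted p between 0.061 and 0.1464). Without control replicate 2 those of Relb, Traf1, Pdlim2, Tnfrsf11a, Ccl2, Marcksl1 and Bcl2l1 were lost, without H2O2 replicate 1 those of Relb, Tnfrsf4, Nos2, Plk2 and Bcl2l1, and without control replicate 1 that of Tnfrsf4. DESeq2 did not call Tnfrsf4 or Bcl2l1 (adjusted p of 0.0695 and 0.0653). Cxcl2, Tlr9 and Cd86 were followed in this way only as part of the counts over the lists. Cell type markers moved with H2O2 as well, in a comparison where 4.61% of all genes fell and 3.93% rose. Of 10 dendritic cell markers 6 fell and none rose (median -0.37, with Cd74 at -0.41 and Irf8 at -0.45). Of 7 mast cell and basophil markers 5 fell. Of 7 tested neutrophil markers 2 fell (Mpo, averaging 4.02 CPM, at -3.77 and Cxcr2 at -0.60) and none was called higher, with a median of -0.60. The others were not called: S100a8 (0.94), Ltf (0.44) and S100a9 (0.09) stood above 0, and Elane (-3.15) and Camp (-0.63) below. The neutrophil list summed to 106.7, 294.6 and 480.8 CPM in the controls and to 103.1 and 471.2 CPM with H2O2. Of 8 macrophage and monocyte markers 1 rose, and their sum was between 958.2 and 1119 CPM in the controls and 1380 and 1190 CPM with H2O2. Their part in the changes of the pathway genes was not tested.

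**Figure D3:**
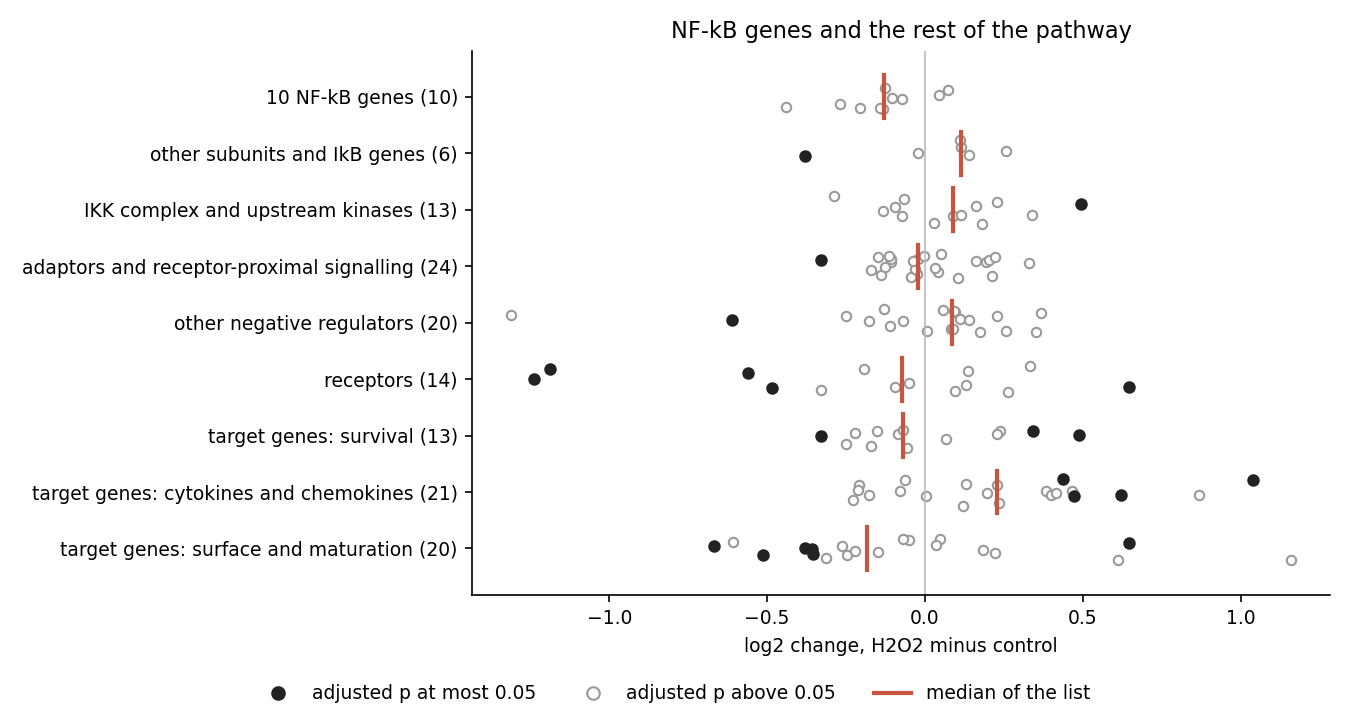
Fitted log2 change with H2O2 (horizontal axis) of every tested gene in the lists, with the number of genes in brackets, filled points for an adjusted p of at most 0.05 and a bar at each list's median. The 10 NF-kB genes hold no filled point and a median of -0.13, whereas the cytokine and chemokine targets have a median of 0.23 and the surface and maturation targets one of -0.18.

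**Figure D4:**
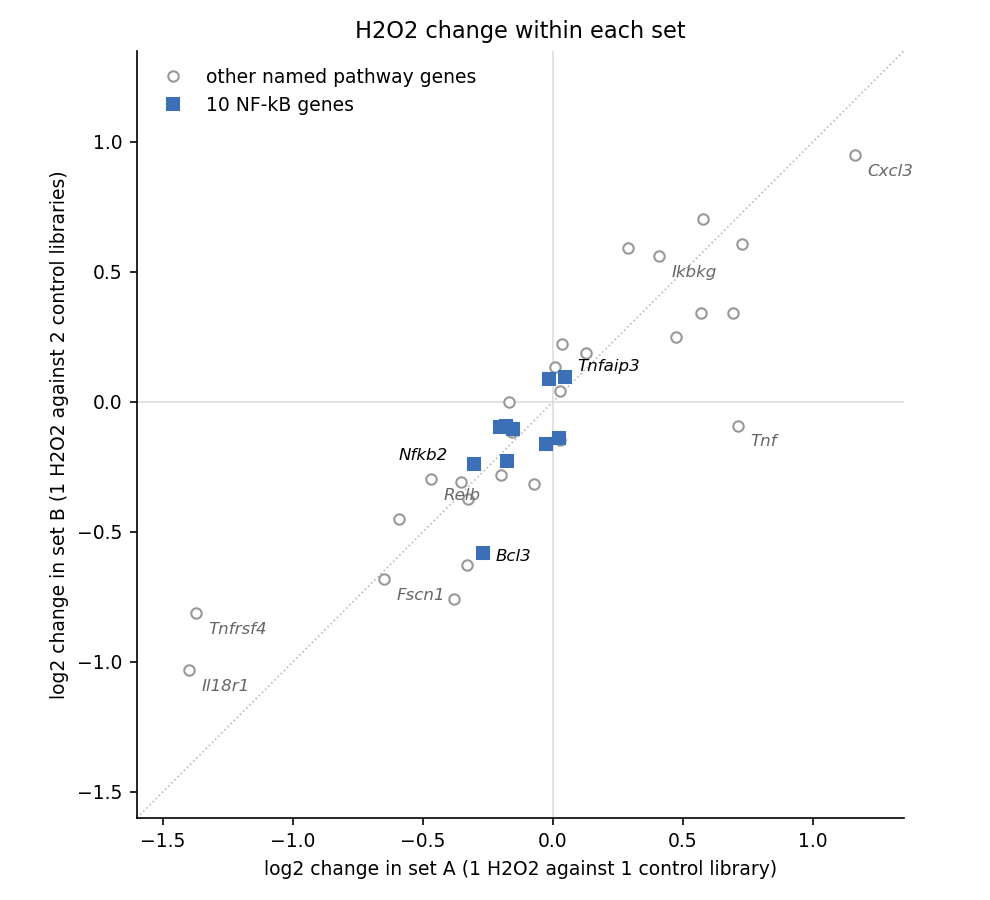
Log2 change with H2O2 in set A (horizontal axis) and in set B (vertical axis) for the 10 NF-kB genes (squares) and the other named genes (circles), with equal changes on the dotted line. The squares stay near the origin, with Bcl3 farthest at -0.27 and -0.58. Cxcl3 stands at 1.16 and 0.95 and Il18r1 at -1.40 and -1.03. Many circles are genes named because they were called in these data, so that choice places them away from the origin. The 10 NF-kB genes were taken whatever their values, so the distances of squares and circles are not a like comparison.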

How the data were processed

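RNA of 6 labelled samples was sequenced. The authors deposited raw estimated counts for each gene, per the file headers, and from 8.38% to 9.03% of them were not whole. HISAT, Bowtie2 and GRCm38.p6 are named in the submitters' processing notes, and for the counter, annotation and strand setting the sources used here name nothing. Symbols and coordinates came from a RefSeq table of that build (17520 of 17567 rows matched). Counts were rounded, filtered (filterByExpr, minimum count 10, minimum total 15; 12209 genes, all 10 members among them) and scaled with TMM factors. H2O2 was compared with control by edgeR 4.0.16 (quasi-likelihood F test, R 4.3.3) with a term for the library set (3 controls, 2 H2O2, 2 residual degrees of freedom), and p-values were adjusted by Benjamini-Hochberg over all genes. Set A had at least 100 counts over 4 Y-linked genes. Standard errors are the absolute log2 change over the square root of F, and intervals use the fit's total degrees of freedom. An exact permutation test over all 5 libraries, without regard to the sets, could not go below 0.1. Within the sets there are fewer arrangements, so the limit there is higher. Within-set changes are differences of log2 CPM (prior count 2). Limma 3.58.1 (voom), DESeq2 1.42.0, other scaling, no filter, no set term, a replicate block and leaving out each library were alternatives. The fit was tested on simulated data. Apart from the repeated file, every pair of files differed beyond counting noise (chi-square over its degrees of freedom at least 5.07). The members, lists, set term and rules were chosen with earlier results of these data known. Named genes are the 10 members, and per other list up to 3 called genes each way by lowest p, the most abundant gene, and Relb, Ikbkb, Chuk, Ikbkg, Cyld and Tnf. The 5 genes most like the members' mean profile were sought among genes averaging 10 CPM or more.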

Additional observations from a re-analysis of the deposited data

How the results depend on the processing

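The count of 0 of 10 NF-kB genes called for H2O2 held under limma-voom, DESeq2, RLE size factors and the replicate block. The count was also 0 with no filter, where only 102 of all genes were called. Without the set term 0 of all genes were called, so that setting could give no other count. With each library left out it was between 0 and 1 (Bcl3, on the lower side). Over all genes tested, 1043 were called (480 higher, 563 lower). This fell to 0 (0 and 0) without the set term, 554 (220 and 334) with the replicate block and 102 (60 and 42) with no filter, and lay between 1 and 2064 (1 to 1248 higher, 0 to 816 lower) with each library left out. For the other pathway genes, 20 calls (9 higher, 11 lower) became 0 (0 and 0) without the set term, 11 (6 and 5) with the replicate block (which takes the place of the set term), 4 (2 and 2) with no filter, and between 0 and 36 (0 to 20 higher, 0 to 16 lower) with each library left out. The 9 calls between the sets (7 higher, 2 lower) lay between 6 and 8 with each library left out (5 to 7 higher, 1 to 2 lower), an alternative chosen after seeing the data. With the replicate block the calls of Relb, Traf1, Pdlim2, Tnfrsf11a, Ccl2, Il1rn, Marcksl1, Plk2 and Bcl2l1 were lost (adjusted p between 0.0595 and 0.1175 by edgeR), and of the other named calls those of Ikbkg, Clec7a, Il18r1, Tnfrsf4, Cxcl3, Nos2, Fscn1 and Cd83 held. Signs turned for values that were not called: without the set term for Rel (0.0681), Ikbkb (0.0034), Malt1 (-0.0966), Tnf (-0.2323) and Ccr7 (0.0695), and with the replicate block for Malt1 (-0.0079). With each library left out, the ranges that crossed 0 were -0.0164 to 0.0896 for Rela, -0.148 to 0.0208 for Nfkbie, -0.1708 to 0.0022 for Ikbkb, -0.0172 to 0.073 for Malt1, -0.1531 to 0.0261 for Bcl2a1b and -0.0996 to 0.7145 for Tnf. Leaving out either library of set A leaves only the comparison within set B. The cause was not tested. The replicate numbers are not stated to pair the samples. Deviations of same-numbered libraries from their group means correlated at 0.81 for number 1 and 0.714 for number 2, with only 2 H2O2 libraries, and number 1 is also set A.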

Other observations

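The mean centred log2 profile of the 10 NF-kB genes stood at 0.26, -0.09 and -0.07 in control replicates 1, 2 and 3 and at 0.14 and -0.23 in H2O2 replicates 1 and 2. Of 8388 named genes outside the lists, the 5 with the smallest root mean square difference from it over these 5 libraries were Zdhhc3 (0.0087), Raly (0.014), Marveld1 (0.017), Med19 (0.02) and Cdca7l (0.022).

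Within the sets, the ratio of Nfkb2 to Relb per length was 1.347 and 1.512 in set A and between 1.82 and 2.04 in set B.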
